A study of Mus musculus with 12 samples.

Results

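The genes described here are 10 CC chemokines, Ccl2, Ccl3, Ccl4, Ccl6, Ccl7, Ccl8, Ccl9, Ccl17, Ccl22 and Ccl24, out of 24445 gene symbols counted in cardiac macrophages (Mφ). They were chosen by name, with earlier results of these data known, so their levels and differences are given as a description, and the FDR printed beside them comes from the fit of all genes. All 10 passed the filter on low counts, with between 53 (Ccl17 in Ct 4) and 545071 counts (Ccl6 in Ct 3) in a library.

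The Mφ came from hearts of C57BL6/J mice with osmotic pumps, 4 mice per group and 1 library per mouse, and were gated by FACS on CD14 and CD64. Control mice (Ct) received saline, for a time that the sources used here do not give for each mouse. Mice with early concentric hypertrophy (ECH) received 30 mg/kg/day of isoproterenol, which stimulates β-adrenergic receptors, over 14 days, and mice with heart failure (HF) received this dose over 28 days. No genotype was altered in any group, and the methods describe the animals as adult males.

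CC chemokines are small secreted proteins named for a pair of adjacent cysteines, and they attract leukocytes by binding G protein-coupled receptors. Ccl2 and Ccl7 act on Ccr2 and draw Ly6C-high monocytes from blood into tissue. Ccl3 and Ccl4 attract monocytes and T cells, and Ccl3 acts on Ccr1, the receptor that Ccl6 and Ccl9 use as well. Ccl17 and Ccl22 are the ligands of Ccr4, found on T cell subsets, and Ccl24 (eotaxin-2) acts on Ccr3 of eosinophils. In the heart, resident and recruited Mφ are both known sources of these proteins. Transcripts were measured here, not the secreted proteins.

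Most of these genes lie in 2 blocks of mouse chromosome 11 (GRCm38, the same build as mm10). The first block holds Ccl2 (chr11:82035571-82037453, plus strand), Ccl7 (chr11:82045712-82047525, plus) and Ccl8 (chr11:82115185-82116799, plus), with Ccl11 and Ccl12 between the last 2 of them. The second holds Ccl9 (chr11:83572919-83578636, minus), Ccl6 (chr11:83587882-83593087, minus), Ccl3 (chr11:83647844-83649355, minus) and Ccl4 (chr11:83662584-83664683, plus). Ccl22 (chr8:94745590-94751699, plus) and Ccl17 (chr8:94810453-94812036, plus) are 58.8 kb apart on chromosome 8 with Cx3cl1 between them, and Ccl24 (chr5:135569937-135573049, minus) is on chromosome 5. The annotation also places Gm17268 over Ccl2 and E230016K23Rik over Ccl6, each on the other strand. Reads of overlapping genes cannot be told apart where strand was not used in counting, and E230016K23Rik itself held 0.163% to 0.395% of the counts of Ccl6.

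RefSeq promoter windows (GRCm38.p6, from 250 bases before to 50 bases after the start of each gene) were at hand for 6 of the 10 genes, Ccl3, Ccl6, Ccl8, Ccl9, Ccl17 and Ccl22. The windows of Ccl6 and Ccl9 are shown because these genes had the most similar levels over the 12 libraries, as described later. The 80 bases before each start are printed from 5′ to 3′ on the minus strand, with the longest run that the full windows of both genes share in capitals. It is 13 bases long and lies at a different distance from each start, and the longest shared run of the other 14 pairs was 6 to 10 bases.
Ccl6, chr11:83593088-83593167: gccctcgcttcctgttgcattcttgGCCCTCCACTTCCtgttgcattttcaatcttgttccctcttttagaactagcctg
Ccl9, chr11:83578637-83578716: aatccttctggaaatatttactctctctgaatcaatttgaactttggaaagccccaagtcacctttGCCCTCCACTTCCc

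The stretch of the Ccl17 window from position -184 to -115 relative to the start is shown because Ccl17 was the gene whose HF values lay above those of both other groups. Its capitals mark the only match in these 6 windows to the STAT6 motif (TTC and GAA with any 4 bases between them, searched on both strands like the others), which 6.95% of all 32851 windows hold.
Ccl17, chr8:94810269-94810338: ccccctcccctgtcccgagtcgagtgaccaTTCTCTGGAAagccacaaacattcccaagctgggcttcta
An NF-kB motif was found in the Ccl9 window only (8.46% of all windows). Neither the AP-1 motif (TGACTCA, 5.20% of all windows) nor the CRE motif (TGACGTCA, 1.79%) was found in any of the 6. These are matches of letters and not measured binding sites.

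Libraries held 88466559 to 111180291 counts, and levels are given as CPM, the counts of a gene scaled to a common library size (TMM). Transcripts of the sorted cell type were abundant in each library, with Cd14 at 1713 to 2993 CPM and Csf1r at 2620 to 5297 CPM. The sample descriptions number the libraries from 1 to 6, with 2 libraries for each number. A split into 2 series was inferred from this, with all Ct mice and ECH 1 and 2 in one and all HF mice and ECH 3 and 4 in the other. Other splits fit the same numbers, and neither the labels nor the methods state series or batches. The sample titles also hold codes whose meaning is not given. Their first part is shared by ECH 3 and 4, by Ct 1 and 2, by Ct 3 and 4 and by HF 1 and 2. Under the inferred split Ct and HF cannot be told apart from the series, and values that take it into account are given for some of the genes whose call or value changed. Summed over 4 genes, B cell transcripts were at 96.1 to 446 CPM in Ct against 34.2 to 79.5 in ECH and 50.02 to 74.6 in HF. In bulk RNA, fewer cells of a type and less RNA per cell cannot be told apart.

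The 10 chemokines together took 0.621% to 1.204% of all counts in a library. Ccl6 alone made up 33.7% to 56.1% of their summed CPM. Levels of different genes were compared per kb of annotated exons. On that scale Ccl6 had the highest mean in Ct, at 1812 ± 866 CPM per kb (SD, n = 4), before Ccl4 with 1523 ± 473 and Ccl3 with 1294 ± 306. Next came Ccl2 with 748 ± 231 CPM per kb and Ccl7 with 665 ± 349, and then Ccl9 with 395 ± 204, Ccl24 with 328 ± 73.5 and Ccl8 with 241 ± 62.9. Ccl17 and Ccl22 were far lower, at 11.9 ± 8.80 and 2.61 ± 2.31 CPM per kb. Of the neighbours in this order in Ct, Ccl3 and Ccl2 did not overlap over the 4 mice, nor did Ccl8 and Ccl17, and all other neighbours overlapped.

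**Figure D1:**
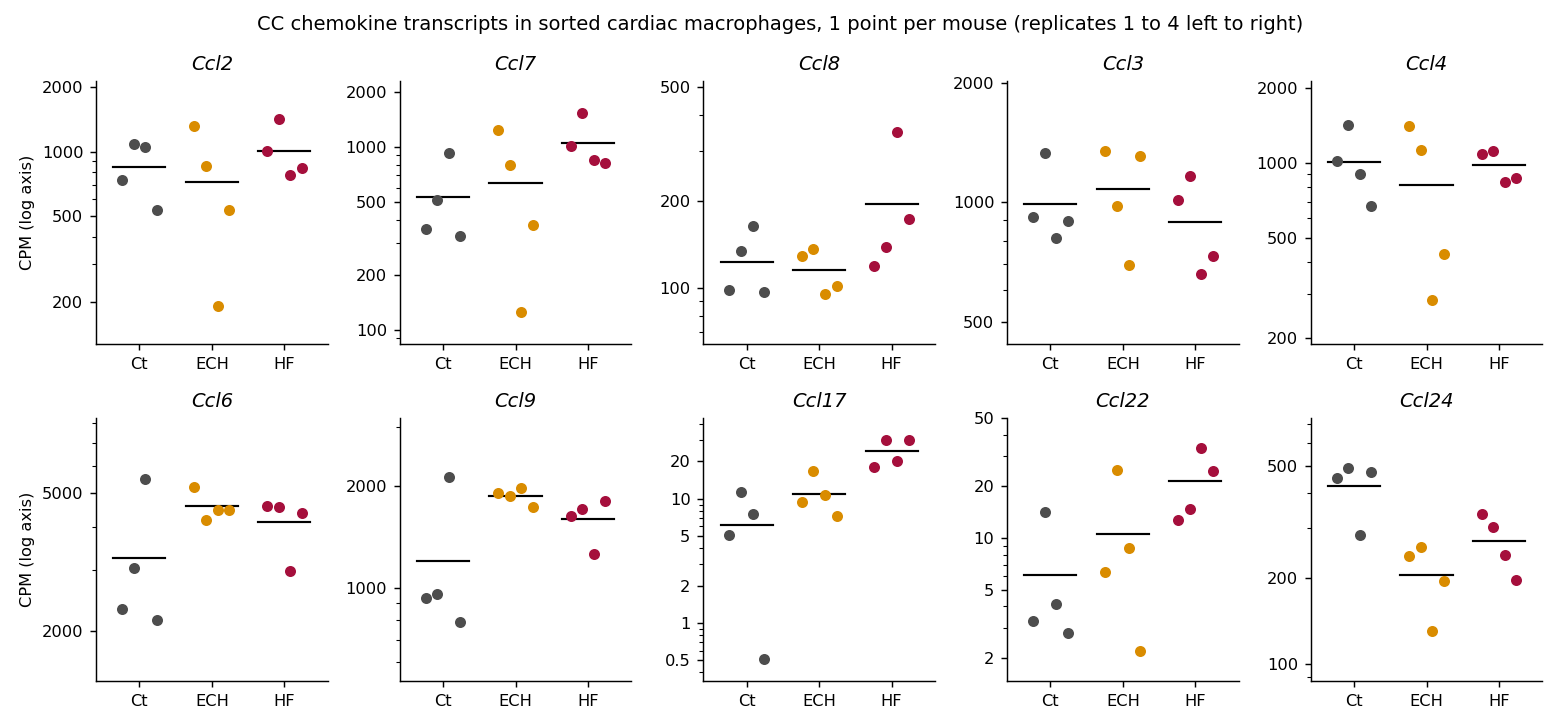
CPM of each chemokine (log axis, a separate scale in each panel) in the 4 Ct, 4 ECH and 4 HF mice. Points are mice in the order of their replicate numbers and lines are group means. HF points of Ccl17 lie at 18.2 CPM and above, over all others, and ECH points of Ccl24 lie at 259 CPM and below, under all Ct points. ECH 3 is the lowest of the 12 points for Ccl2, Ccl7, Ccl8, Ccl4 and Ccl24.

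None of the 10 genes was called in any comparison with the edgeR quasi-likelihood test (threshold of 2-fold at an FDR of 0.05). Among all 14608 genes tested, 0.356% were called between ECH and Ct, 0.377% between HF and Ct and 0% between HF and ECH. At an unadjusted p under 0.05, 2 of the 10 stood out between ECH and Ct (Ccl24 and Ccl9), 4 between HF and Ct (Ccl17, Ccl22, Ccl24 and Ccl8) and 1 between HF and ECH (Ccl8), where 11.9%, 16.1% and 7.98% of all genes did. The median log2 fold change of the 10 genes was 0.19 for ECH against Ct, 0.38 for HF against Ct and 0.44 for HF against ECH, while the median of all genes was 0.01, -0.01 and -0.02. The 7 other CC chemokines that passed the filter, described later, had medians of -0.24, -0.43 and -0.19. The 3 comparisons share their samples, so these values are not independent of each other.

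Groups without overlap, meaning that all 4 mice of one group lay above or below all 4 of the other, were seen for 2 of the genes. Ccl24 was lower in ECH than in Ct, as were 3.64% of all genes, and none of the 10 was higher (4.33% of all genes). Ccl17 was higher in HF than in Ct (4.59% of all genes) and than in ECH (3.36%), and none was lower in either comparison (4.45% and 3.56%). One gene in 10 is near these shares, so the count says nothing particular about the chemokines.

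**Figure D2:**
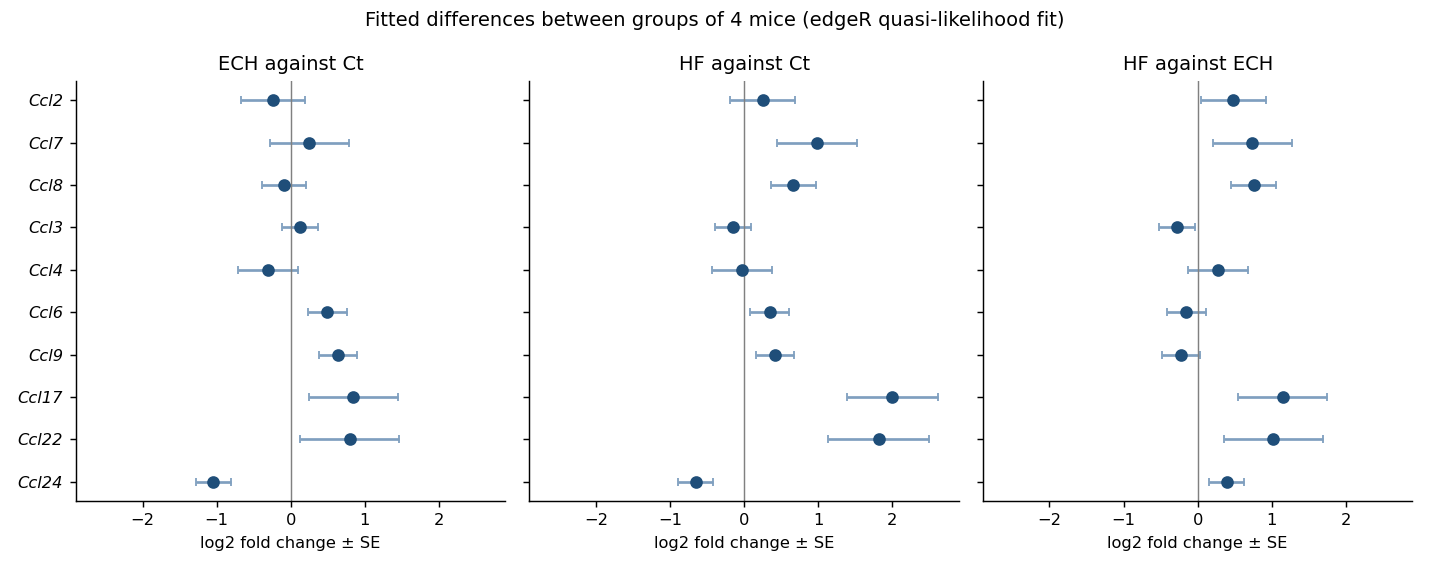
Log2 fold change (points) with its standard error (bars) of the 10 chemokines in the 3 comparisons, from the edgeR fit of 12 libraries. For ECH against Ct the values run from -1.04 (Ccl24) to 0.85 (Ccl17), and for HF against Ct from -0.65 (Ccl24) to 2.00 (Ccl17).

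Ccl2 and Ccl7, the Ccr2 ligands, varied more between ECH mice than between groups. Ccl2, also known as MCP-1, was at 739, 1085, 1048 and 533 CPM in Ct 1 to 4. In ECH it was at 1308, 860, 190 and 533 CPM, and in HF at 1008, 1420, 777 and 839 CPM. The groups overlapped, with ECH 3 lowest and HF 2 highest of all. Its log2 fold change was -0.24 ± 0.44 (SE) for ECH against Ct (FDR 0.88, edgeR) and 0.25 ± 0.44 for HF against Ct (FDR 0.83).

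Ccl7, or MCP-3, lies 8.26 kb from Ccl2. Its levels were 356, 515, 933 and 327 CPM in Ct, 1237, 795, 125 and 374 CPM in ECH and 1016, 1531, 850 and 823 CPM in HF. All HF mice had at least 823 CPM, and Ct 3 was the only control above the lowest HF mouse. The log2 fold change was 0.99 ± 0.54 for HF against Ct (FDR 0.39, edgeR) and 0.25 ± 0.53 for ECH against Ct (FDR 0.90), which turned to -0.30 without ECH 1 (FDR 0.89).

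Relative to each other, these neighbours did not keep one proportion. The ratio of Ccl2 to Ccl7 within a library was 2.08, 2.11, 1.12 and 1.63 in Ct, and 1.06, 1.08, 1.52 and 1.42 in ECH. In HF it was 0.992, 0.927, 0.914 and 1.02, below every Ct and ECH library. The ratio was looked at after the levels were seen, so it is given without a test.

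Ccl8 (MCP-2), at the other end of this block, was at 98.6, 134, 164 and 96.6 CPM in Ct and at 129, 137, 95.4 and 101 CPM in ECH. HF mice had 119, 139, 350 and 173 CPM. HF 3 was the highest of all 12 and HF 4 the next, while HF 1 and 2 lay among the others. The log2 fold change was 0.66 ± 0.30 for HF against Ct (FDR 0.30, edgeR) and 0.76 ± 0.30 for HF against ECH (FDR 0.58). Without HF 3 it fell to 0.22 (FDR 0.71) and 0.32 (FDR 0.81).

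Ccl3 and Ccl4 (MIP-1α and MIP-1β) are 13.2 kb apart on opposite strands. Ccl3 had the smallest spread of the 10 genes, 2.05-fold between the lowest and the highest mouse. It was at 919, 1336, 813 and 898 CPM in Ct, at 1350, 977, 694 and 1307 CPM in ECH and at 1015, 1165, 657 and 730 CPM in HF. All 3 groups overlapped, and its log2 fold change was 0.13 ± 0.24 for ECH and -0.15 ± 0.24 for HF against Ct (FDR 0.89 and 0.81, edgeR).

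Ccl4 was at 1021, 1420, 907 and 673 CPM in Ct and at 1088, 1122, 843 and 875 CPM in HF. In ECH the first 2 mice had 1409 and 1129 CPM and the last 2 had 282 and 433 CPM, the lowest of all 12. Its log2 fold change was -0.31 ± 0.41 for ECH against Ct (FDR 0.82, edgeR) and -0.03 ± 0.41 for HF against Ct (FDR 0.98).

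The Ccl3 to Ccl4 ratio of ECH 3 and 4 stood apart, with Ccl3 near the highest level of all in ECH 4 and low in ECH 3, but by less than Ccl4. It was 2.46 in ECH 3 and 3.02 in ECH 4, against 0.780 to 1.33 in the other 10 libraries. ECH 3 and 4 were also the libraries with the lowest Ccl12 of the 12, at 105 and 90.6 CPM. The summed level of 10 immediate early genes, such as Fos and Egr1, was 36245, 23354, 16932 and 24522 CPM in ECH 1 to 4 and 17861 to 31415 CPM in HF. It was lowest of all in ECH 3, and ECH 2 was below ECH 4. Ct libraries held 34808 to 42136 CPM of these transcripts, which are known to rise during tissue dissociation. The summed level of 7 NF-kB feedback genes, such as Nfkbia and Tnfaip3, was 3215, 2219, 1190 and 1734 CPM in ECH 1 to 4. It was 2447 to 3864 CPM in Ct and 1717 to 2814 CPM in HF. Within ECH the order was that of Ccl4, while HF 3, at 1717 CPM, was below ECH 4 and had Ccl4 at 843 CPM. The part of either list in the differences of Ccl4 was not tested.

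ECH 3 and 4 are also the ECH mice of the second inferred series, and some calls changed when this inferred split was used. The low Ccl4 of ECH 3 and 4 enters these calls, so they are not independent of the levels given above. With the inferred series as a covariate, Ccl4 was called higher in HF than in Ct (log2 fold change 1.79, FDR 0.041, edgeR), where 1.42% of all genes were called, and higher in HF than in ECH (1.46, FDR 0.018), where 1.86% were. HF mice set against ECH 3 and 4 alone, all in 1 inferred series, had higher Ccl17 (1.43, FDR 0.039), Ccl7 (2.08, FDR 0.046) and Ccl4 (1.46, FDR 0.013), with 2.49% of all genes called. Between ECH 1 and 2 and the Ct mice none of the 10 was called, with log2 fold changes of 0.33 for Ccl4, 0.34 for Ccl2 and 0.92 for Ccl7. With the covariate, values that were not called moved as well. For HF against Ct the log2 fold change became 1.83 for Ccl2 (FDR 0.13), 3.01 for Ccl7 (FDR 0.054) and 3.32 for Ccl22 (FDR 0.17). For HF against ECH it became 1.48 for Ccl2 (FDR 0.087), 2.08 for Ccl7 (FDR 0.056) and 1.96 for Ccl22 (FDR 0.27). The covariate for HF against Ct rests on the ECH mice alone.

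**Figure D3:**
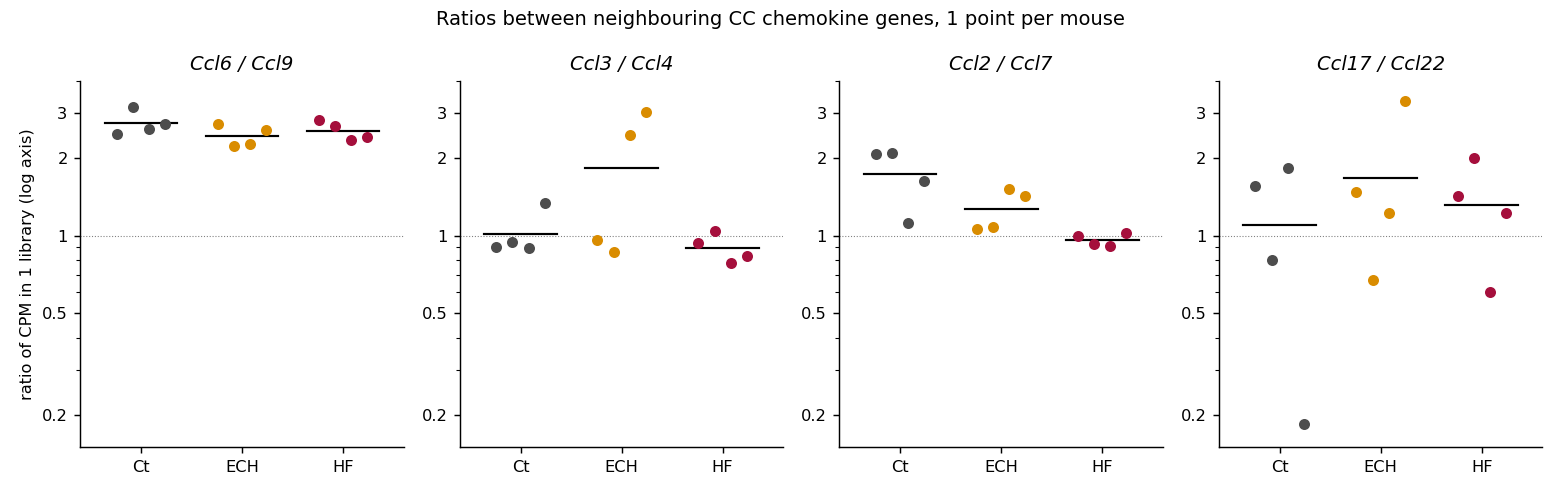
Ratio of the CPM of neighbouring genes within each library (log axis) in Ct, ECH and HF mice; points are mice and lines are group means. Ccl6 to Ccl9 stays between 2.23 and 3.18 in all 12, Ccl3 to Ccl4 is at 2.46 and 3.02 in ECH 3 and 4, Ccl2 to Ccl7 is lowest in HF, and Ccl17 to Ccl22 runs from 0.185 to 3.33.

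Ccl6 and Ccl9 are Ccr1 ligands made by myeloid cells of rodents. Ccl6 was at 2315, 3035, 5511 and 2149 CPM in Ct. It was at 5203, 4183, 4474 and 4465 CPM in ECH and at 4593, 4551, 2974 and 4385 CPM in HF. Without Ct 3, the highest of all 12, every ECH mouse would lie above the controls. With Ct 3 in the fit, the log2 fold change was 0.49 ± 0.26 for ECH against Ct (FDR 0.49, edgeR) and 0.34 ± 0.26 for HF against Ct (FDR 0.56). Without Ct 3 it was 0.88 (FDR 0.049) and 0.72 (FDR 0.068), both under the fold threshold.

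Ccl9, also called MIP-1γ, was at 930, 956, 2128 and 793 CPM in Ct, at 1905, 1875, 1970 and 1739 CPM in ECH and at 1633, 1706, 1258 and 1813 CPM in HF. Ct 3 again lay far above the other controls and above all treated mice. The 4 ECH values differed little (SD 96.9 CPM around a mean of 1872). The log2 fold change for ECH against Ct was 0.64 ± 0.26 with all mice (FDR 0.35, edgeR), and without Ct 3 it was 1.07 and called (FDR 0.019), as were 0.633% of all genes. For HF against Ct it was 0.42 ± 0.26 (FDR 0.46), and 0.85 without Ct 3 (FDR 0.023), under the fold threshold.

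Ct 3 stood apart in other transcripts of the family too. It had the highest Ccr2 and Ccr1 of the controls, at 481 and 282 CPM. Neutrophil transcripts, summed over 6 genes, were at 1158 CPM in Ct 3 and 1562 CPM in Ct 2, against 329 to 564 CPM in the other controls, 182 to 500 CPM in ECH and 119 to 1230 CPM in HF. After Ct 3, Ct 2 had the highest Ccl6 and Ccl9 of the controls, at 3035 and 956 CPM. The sum of 5 resident Mφ genes was 5090 CPM in Ct 3 against 3877 to 4497 CPM in the other controls. Among the controls, Lyve1, Folr2 and Timd4 were highest in Ct 3, while Cd163 was lowest there and Mrc1 was neither. Whether any of these bear on Ccl6 and Ccl9 was not tested.

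Ccl6 and Ccl9 kept nearly the same proportion in each library. The ratio of their CPM was 2.49, 3.18, 2.59 and 2.71 in Ct, 2.73, 2.23, 2.27 and 2.57 in ECH and 2.81, 2.67, 2.37 and 2.42 in HF. That is a 1.42-fold range, while the level of Ccl6 itself varied 2.56-fold and that of Ccl9 2.69-fold. The distance between 2 genes was measured as the root mean square difference (RMS) of their log2 CPM, each centred on its own mean, over the 12 libraries. By this measure each was the nearest of all 14608 genes to the other, with a distance of 0.14. Their genes are 9.25 kb apart on the same strand.

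**Figure D4:**
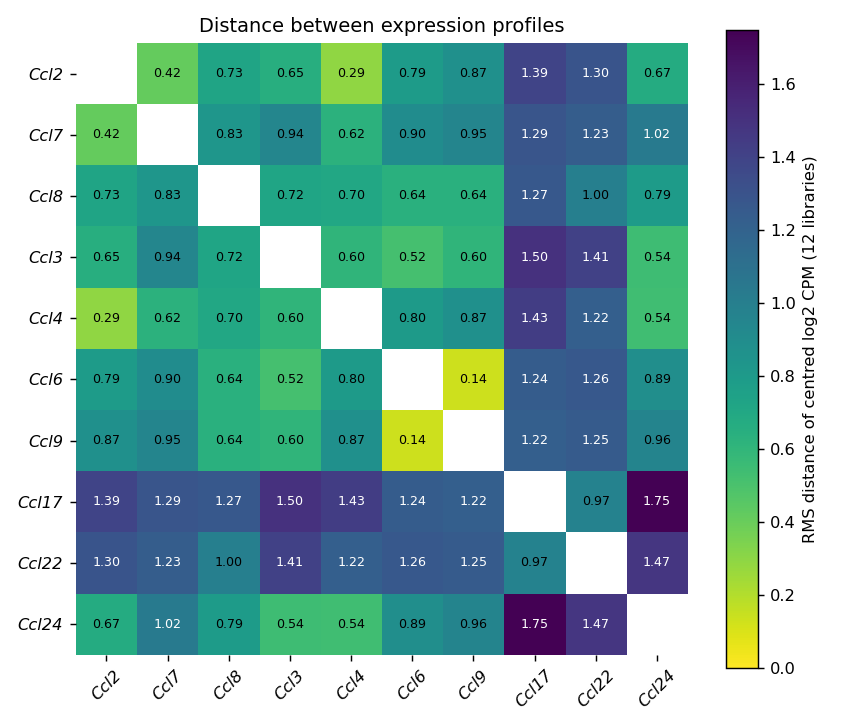
RMS distance between the centred log2 CPM profiles of each pair of the 10 chemokines over 12 libraries, where a small value means that both genes varied in the same way. Ccl6 with Ccl9 (0.14) and Ccl2 with Ccl4 (0.29) are the closest pairs, and Ccl17 with Ccl24 (1.75) is the most distant.

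Distance in the genome and distance in level did not always go together in these genes. Ccl2 was nearer to Ccl4 of the other block (RMS 0.29) than to its neighbour Ccl7 (0.42). Over all genes, the 3 nearest to Ccl2 were Cxcl2 (RMS 0.27), a neutrophil-attracting chemokine at 372 to 1576 CPM, Ccl4 (0.29) and Rasgef1b (0.36). Those nearest to Ccl7 were Dpysl3 (0.36), Cxcl1 (0.40) and Ccl2 (0.42). Cxcl1, like Cxcl2, was lowest in ECH 3 (35.6 CPM) and highest in ECH 1 (400 CPM). These distances describe 12 libraries of similar depth.

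Ccl17 and Ccl22, the Ccr4 ligands, were the scarcest of the 10 and had the largest differences between HF and Ct. Ccl17 (TARC) was at 5.12, 11.3, 7.57 and 0.513 CPM in Ct and at 9.35, 16.6, 10.8 and 7.34 CPM in ECH. HF mice had 18.2, 29.5, 20.1 and 30.0 CPM. All 4 HF mice lay above all 8 others, and Ct 4 was far below the rest. The group means were 6.12 ± 4.52 CPM in Ct, 11.02 ± 3.99 in ECH and 24.4 ± 6.18 in HF (SD, n = 4).

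With the quasi-likelihood test the log2 fold change of Ccl17 was 2.00 ± 0.61 for HF against Ct (FDR 0.16), a 3.99-fold difference, and 1.15 ± 0.60 for HF against ECH (FDR 0.67). Other tests placed HF against Ct past the threshold. They were DESeq2 (FDR 0.019, with 2.31% of all genes called), the likelihood ratio test of edgeR (FDR 0.040, with 1.87%) and limma-voom with sample quality weights (FDR 0.029, with 0.89%). The log2 fold change was 1.99 with DESeq2 and 3.13 with limma-voom. The quasi-likelihood test did not call HF against Ct with the inferred series as a covariate (2.52, FDR 0.28). Nor did it with any single library left out (FDR 0.10 to 0.29).

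Ccl22 (MDC) was at 3.27, 14.1, 4.14 and 2.78 CPM in Ct, at 6.35, 24.8, 8.80 and 2.20 CPM in ECH and at 12.8, 14.8, 33.5 and 24.5 CPM in HF. Ct 2 reached into the HF range and ECH 2 lay above 3 of the 4 HF mice. Its log2 fold change was 1.82 ± 0.68 for HF against Ct (FDR 0.23, edgeR) and 1.02 ± 0.67 for HF against ECH (FDR 0.75). None of the tests tried called it. Without Ct 2 the value was 1.63 for ECH and 2.65 for HF against Ct (FDR 0.38 and 0.12), and without ECH 2 it was -0.07 for ECH against Ct (FDR 0.99) and 1.88 for HF against ECH (FDR 0.35). Unlike Ccl6 and Ccl9, this pair kept no fixed proportion, with a Ccl17 to Ccl22 ratio of 0.185 in Ct 4 and 3.33 in ECH 4.

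Dendritic cells are also known to make Ccl17 and Ccl22. None of 6 dendritic cell markers was called in the 3 comparisons, and for HF against Ct the fitted value was above 0 for 4 and below 0 for 2 (Xcr1 and Clec9a). The sum of all 6 was 53.5 to 67.0 CPM in Ct, 77.6 to 127 CPM in ECH and 99.0 to 126 CPM in HF. In Ct and HF most of it was Cd209a, a lectin also found on monocyte-derived cells, at 46.4, 55.2, 40.5 and 39.0 CPM in Ct, 64.3, 51.2, 54.3 and 26.1 CPM in ECH and 86.3, 75.5, 95.8 and 79.4 CPM in HF. Like Ccl17, Cd209a was higher in every HF mouse than in the 8 others, with a log2 fold change of 0.90 ± 0.23 for HF against Ct (FDR 0.11, edgeR). The defining genes of type 1 dendritic cells were low, with Xcr1 at most 6.03 CPM and Clec9a at most 3.56 CPM, and Flt3 was highest in ECH 3 (55.8 CPM). For HF against Ct the log2 fold change was 1.85 for Flt3 (FDR 0.26, edgeR), 0.82 for Fscn1 (FDR 0.58) and 0.38 for Zbtb46 (FDR 0.68). It was -0.80 for Xcr1 (FDR 0.45) and -2.09 for Clec9a (FDR 0.55). The part of dendritic cells in the Ccl17 values was not tested.

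Genes nearest in profile to Ccl17 were Rhov (RMS 0.70), Cacnb3 (0.75) and Creb3l1 (0.80), and Ccl22 itself was the 23rd (0.97). To Ccl22 they were B3gnt7 (0.67), Cxcl14 (0.73) and Gcat (0.75). Rhov and Cacnb3 stayed under 6.28 CPM, and at such levels a distance also holds counting error.

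Ccl24 had a lower mean in both treated groups than in Ct, without overlap between ECH and Ct. Its levels were 450, 491, 285 and 473 CPM in Ct, 239, 259, 130 and 196 CPM in ECH and 336, 304, 242 and 198 CPM in HF. Each ECH mouse lay under each control, the lowest of which was Ct 3. HF 1 and HF 2 lay above Ct 3, while HF 3 and HF 4 lay within the ECH range. Means were 425 ± 95.1 CPM in Ct, 206 ± 56.9 in ECH and 270 ± 61.9 in HF (SD, n = 4).

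The log2 fold change of Ccl24 was -1.04 ± 0.24 for ECH against Ct with the quasi-likelihood test (FDR 0.085), a 2.06-fold lower level, and -0.65 ± 0.24 for HF against Ct (FDR 0.22). ECH against Ct was called with DESeq2 (-1.05, FDR 0.0014, with 1.7% of all genes called) and with the likelihood ratio test (FDR 0.0034, with 1.49%). Without Ct 3 the quasi-likelihood test called it too (-1.19, FDR 0.039, with 0.633% of all genes called). It did not without ECH 3, the lowest of all 12 libraries (-0.88, FDR 0.24), or without ECH 4 (-1.02, FDR 0.22). Limma-voom did not call ECH against Ct (-1.05, FDR 0.052). Between ECH 1 and 2 and the Ct mice, all in 1 inferred series, the value was -0.78 (FDR 0.80, edgeR). HF and ECH were not called apart (log2 fold change 0.39 ± 0.24, FDR 0.73). With the inferred series as a covariate the difference between HF and Ct was -0.04 (FDR 0.98), and that between ECH and Ct was -0.77 (FDR 0.48).

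Eosinophils, the cells that Ccl24 attracts, are not selected by a gate on CD14 and CD64, so these libraries do not measure their number in the heart. Epx, an eosinophil granule gene, had 0 counts in all 12, where 3 counts would be 0.0259 to 0.0349 CPM, and the sum of 5 eosinophil genes was at most 5.95 CPM. Ccr3, the receptor of Ccl24, was at most 2.61 CPM. Ccl24 is known as a product of alternatively activated Mφ. Timd4, a gene of long-lived resident Mφ, was called lower in ECH than in Ct (FDR 0.034, edgeR), while the summed level of 5 resident Mφ genes was 3877 to 5090 CPM in Ct and 4287 to 6038 CPM in ECH. The part of resident Mφ in the Ccl24 difference was not tested.

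Of 14 other CC chemokines, 7 passed the filter and none was called in the 3 comparisons (edgeR quasi-likelihood test). At an unadjusted p under 0.05, 2 differed between ECH and Ct, 1 between HF and Ct and 1 between HF and ECH, where 11.9%, 16.1% and 7.98% of all genes did. Ccl12 (MCP-5), a further Ccr2 ligand of mice, was the abundant one, at 281, 396, 601 and 301 CPM in Ct, 809, 443, 105 and 90.6 CPM in ECH and 628, 625, 551 and 453 CPM in HF. Like Ccl2 and Ccl7, it was highest in ECH 1 among ECH mice and low in ECH 3. In ECH 4 it stood apart from Ccl2, with a Ccl12 to Ccl2 ratio of 0.170 against 0.365 to 0.709 in the other libraries.

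The remaining 6 that passed were scarce. Ccl5 (RANTES), a product of T cells and Mφ, was at 2.24 to 10.97 CPM, Ccl25 at 0.450 to 5.42, Ccl27a at 0.900 to 3.57 and Ccl26 at 0.0449 to 3.62. Ccl19, a Ccr7 ligand, was at most 2.34 CPM. Ccl11 (eotaxin-1) held at most 80 counts in a library, with 0.302 to 0.809 CPM in Ct, up to 0.178 in ECH and up to 0.0179 in HF. Counts of 0 were found in all 12 libraries for Ccl20, Ccl21a, Ccl21b, Ccl21c and Ccl27b. The Ccl21 and Ccl27 genes have near-identical copies in mice, so their counts are uncertain. Ccl1 and Ccl28 held at most 30 and 5 counts in a library.

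**Figure D5:**
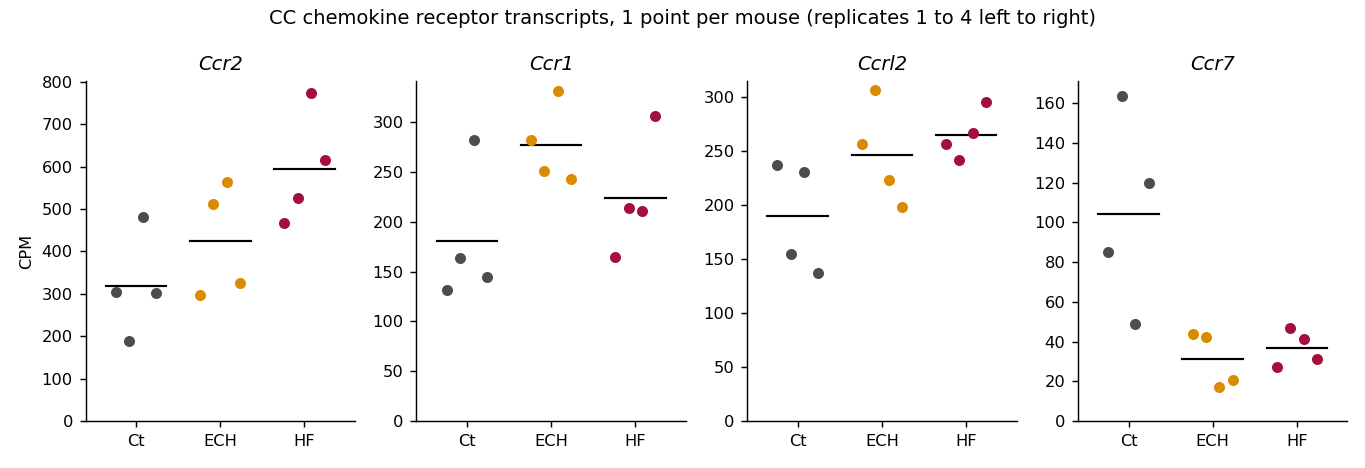
CPM of 4 CC chemokine receptor genes (linear axes from 0) in Ct, ECH and HF mice; points are mice in the order of their replicate numbers and lines are group means. Ccr7 is at 48.6 CPM or more in each Ct mouse and at 47.0 CPM or less in each ECH and HF mouse.

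Among 15 CC chemokine receptors, 14 passed the filter and none was called (edgeR quasi-likelihood test), with 2, 4 and 0 at an unadjusted p under 0.05 for ECH against Ct, HF against Ct and HF against ECH, beside the same 11.9%, 16.1% and 7.98% of all genes. Ccr2, which receives Ccl2, Ccl7 and Ccl12, was at 304, 189, 481 and 301 CPM in Ct, 296, 512, 563 and 325 CPM in ECH and 466, 527, 773 and 615 CPM in HF. Only Ct 3 reached the HF range among controls, and the log2 fold change was 0.90 ± 0.28 for HF against Ct (FDR 0.17). Ccr1 lay between 131 and 282 CPM in Ct, between 243 and 332 CPM in ECH and between 165 and 307 CPM in HF mice. The receptor-like Ccrl2, which binds chemerin, was at 137 to 237 CPM in Ct and 241 to 295 CPM in HF, without overlap, with a log2 fold change of 0.48 ± 0.19 (FDR 0.25).

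Ccr7, the receptor that guides dendritic cells and lymphocytes to lymph nodes, was at 85.4, 164, 48.6 and 120 CPM in Ct. It was at 44.0, 42.3, 17.02 and 20.7 CPM in ECH and at 27.2, 47.0, 41.2 and 31.1 CPM in HF. All 8 treated mice lay below all controls, with a log2 fold change of -1.75 ± 0.38 for ECH (FDR 0.071) and -1.51 ± 0.38 for HF (FDR 0.10, edgeR). Both were called with DESeq2 (FDR 2.5e-04 and 0.0027, with 1.7% and 2.31% of all genes called). Both were also called with the likelihood ratio test (FDR 0.0010 and 0.0067, with 1.49% and 1.87%) and without Ct 3 (FDR 0.034 and 0.034, with 0.633% and 0.686%). Limma-voom called the first (FDR 0.044, with 0.575% of all genes called) and not the second (FDR 0.071). With the inferred series as a covariate neither was called, at -1.27 for ECH (FDR 0.38) and -0.32 for HF (FDR 0.85). The summed B cell transcripts given above were also highest in Ct, with the lowest control at 96.1 CPM and the highest treated mouse at 79.5 CPM. Their part in the Ccr7 values was not tested. Ccr4, the receptor of Ccl17 and Ccl22, was at most 4.99 CPM (Ct 2) and at most 0.0646 CPM in HF. The summed level of 5 T and NK cell genes was 11.9 to 50.02 CPM in Ct, highest in Ct 2, against 2.11 to 22.4 CPM in ECH and 6.42 to 16.1 CPM in HF, and its part in the Ccr4 values was not tested. Ccr3, Ccr6, Ccr8, Ccr9, Ccr10, Ccr1l1, Ackr2 and Ackr4 stayed at 2.68 CPM or less in each library.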

How the data were processed

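RNA of CD14- and CD64-positive cardiac Mφ from 12 mice was analysed, grouped by the condition in the labels. Per the methods, the authors made SMART-Seq v4 cDNA, sequenced it on a NextSeq 500, trimmed reads with Trimmomatic, aligned them to mm10 with TopHat2 and counted them with featureCounts. The deposited counts are raw whole numbers per gene symbol. In the sources used here the strand setting, annotation and tool versions are not given.

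The analysis used edgeR 4.0.16 in R 4.3.3 (filterByExpr, TMM, 1 quasi-likelihood fit of 3 group means over 12 libraries, common dispersion 0.370, Benjamini-Hochberg adjustment over 14608 genes). Calls needed a 2-fold difference and an FDR below 0.05. Alternatives used DESeq2 1.42.0, limma 3.58.1 and the settings listed in the closing section. The code was tested on simulated data. Library totals (88466559 to 111180291 counts) and limits from 3 counts describe counting error only, since no molecular identifiers were used. P values measure the spread between 4 mice per group.

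The members and gene lists were chosen with earlier results of these data known. Genes named are the members, the CC chemokines and receptors that passed the filter, and the 3 genes nearest in profile to each member with an SD of at least 0.75 (log2 CPM, 0.1 CPM added) over the libraries, which were Ccl2, Ccl7, Ccl17 and Ccl22. Some genes of the receptor and marker lists are not reported here. Cell markers were given as sums, and single markers, genes under the filter and the within-library ratios were named after their values were seen. Positions and exon lengths came from GENCODE M21 and promoter windows from RefSeq. Figures were drawn with matplotlib 3.10.9.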

Additional observations from a re-analysis of the deposited data

Results flagged for a closer look

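Each of the 10 chemokines was checked in each group of 4 mice for a value far from the others (Dixon's ratio, the gap to the nearest value over the whole range, above its 95% critical value), 30 groups in all, of which chance alone would flag about 1 in 20. In 3 groups a mouse stood out. Ccl6 in HF 3 was the lowest of its group at 2974 CPM, with the next at 4385 CPM (ratio 0.872). Ccl9 in Ct 3 was the highest of its group at 2128 CPM, with the next at 956 CPM (ratio 0.878). Ccl22 in Ct 2 was the highest of its group at 14.1 CPM, with the next at 4.14 CPM (ratio 0.880).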

How the results depend on the processing

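The direction of the log2 fold change was kept under all alternatives run by 5 of the 10 chemokines for ECH against Ct (Ccl3, Ccl6, Ccl9, Ccl17 and Ccl24), by 8 for HF against Ct (all but Ccl3 and Ccl4) and by 9 for HF against ECH (all but Ccl4). Signs changed in 11 of 230, 9 of 220 and 1 of 230 values. Of these, 1 was past the threshold, that of Ccl4 for HF against Ct with the inferred library series as a covariate. Against 0 chemokines called in each comparison, DESeq2 and the likelihood ratio test each called 1 for ECH against Ct (Ccl24) and 1 for HF against Ct (Ccl17), and limma-voom called 1 for HF against Ct (Ccl17). The inferred series as a covariate gave 1 (Ccl4) for HF against Ct and 1 (Ccl4) for HF against ECH, and libraries of the same series gave 3 for HF against ECH. With single libraries left out, 0 to 2 were called for ECH against Ct (2 without Ct 3, Ccl24 and Ccl9), and 0 in the other comparisons. Of other CC chemokines, 1 was called for HF against Ct with DESeq2, the likelihood ratio test and limma-voom (Ccl11) and with the series as a covariate (Ccl12), and 1 for HF against ECH with the series as a covariate or the same series only (Ccl12). Of the receptors, 1 (Ccr7) was called for ECH against Ct with DESeq2, the likelihood ratio test and limma-voom, 0 to 1 with single libraries left out (Ccr7 without Ct 3, in both comparisons with Ct), 2 for HF against Ct with DESeq2 (Ccr4 and Ccr7), 1 with the likelihood ratio test (Ccr7), and 1 for HF against ECH with the same series only. Shares of all genes called for ECH and HF against Ct were 1.7% and 2.31% with DESeq2 and 1.49% and 1.87% with the likelihood ratio test. They were 0.575% and 0.89% with limma-voom and 0.633% and 0.686% without Ct 3. The series as a covariate called 1.42% for HF against Ct and 1.86% for HF against ECH, and the same series only called 2.49% for HF against ECH. Chemokines without overlap between groups numbered 1 to 3 for ECH against Ct, 1 to 4 for HF against Ct (4 without Ct 3) and 1 to 2 for HF against ECH with single libraries left out, where 9.50% to 15.3%, 11.3% to 18.2% and 8.26% to 13.3% of all genes did not overlap, and 1 in each with RLE scaling or with unscaled totals, the latter added after the data were seen. The cause of these differences was not tested.

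Same-numbered mice of different groups did not deviate together (r from -0.08 to 0.08 over 12 pairs), so the numbers do not pair the samples. With the replicate number as a block, 0 chemokines, other CC chemokines and receptors were called in each comparison, as without it.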
